A study of Caenorhabditis elegans with 2 samples.

Results

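The histone genes of Caenorhabditis elegans were taken as all protein-coding genes whose name is his- followed by a digit, which gave 72 of the 19973 nuclear protein-coding genes of Ensembl release 115. A histone gene was called clustered when another his- gene lay within 5 kb, which held for 67 genes in 14 clusters, and isolated otherwise, which held for 5. The split was sharp: the largest gap from a clustered gene to its neighbour was 987 bp, and the smallest gap from an isolated gene was 633914 bp. All 72 matched a RefSeq symbol by position. Identical copies share a name in Ensembl, which uses 50 names for the 72, so RefSeq symbols are used here.

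The study precipitated chromatin with LIR-1, a zinc-finger protein, in whole worms and sequenced the DNA (ChIP-seq). All animals were strain RW12318, which carries the allele st12318, written TY1::EGFP::3xFLAG::lir-1 on chromosome II in the labels, a CRISPR insertion at lir-1 itself. They were young adults of 63 hours, grown from L1 larvae starved after bleaching. Chromatin was sheared by sonication and the precipitation used an anti-GFP antibody. The 2 libraries were biological replicates 1 and 2 of this 1 group, with no second strain, stage or treatment. Untagged animals were not analysed here, and whole animals mix germline and somatic cells. The labels do not say whether the replicates came from separate cultures.

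Histones H2A, H2B, H3 and H4 form the protein core on which DNA is wound into nucleosomes, and histone H1 binds the DNA between them. Most core histone genes are replication-dependent: they are read during S phase, and their mRNAs end in a conserved stem-loop, bound by the protein CDL-1 in C. elegans, in place of a poly(A) tail. Replacement variants such as H3.3 are made outside S phase too and are usually read from lone genes with introns and polyadenylated mRNAs.

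The members comprised 17 H2A, 16 H2B, 15 H3, 16 H4 and 5 H3.3-type genes, 1 H1 gene and 2 short fragments, his-39 and his-73. Of the clustered genes, 62 stood in 31 divergent pairs, in which the 5′ ends face each other across a spacer of 227 to 368 bp. There were 16 pairs of H2A with H2B, 14 of H3 with H4 and 1 of H2A with H4. Only 8 histone genes had an annotated UTR, so for the others the 5′ end is the annotated start codon and the true start of transcription lies somewhat upstream.

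The sequences that carry the result are shown first, because the histone promoters differ in how far they repeat each other. All are the plus strand of ce11, and the capitals mark matches, on either strand, to TATAAA (the TATA box) and to an 11-base element, TGTCCCCGCAG, described with the results. The first runs from the start of the his-37 peak to the base before the gene, chrV:9546871-9547104, and is the strongest histone site.
his-37: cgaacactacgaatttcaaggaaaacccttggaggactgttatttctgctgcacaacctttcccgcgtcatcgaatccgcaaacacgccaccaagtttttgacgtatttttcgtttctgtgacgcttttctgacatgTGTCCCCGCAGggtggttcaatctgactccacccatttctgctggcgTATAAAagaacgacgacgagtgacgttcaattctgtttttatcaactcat
The next pair are spacers between an H3 and an H4 gene, chrV:8534978-8535213 with a peak and chrV:8897993-8898227 without one, which are 94.9% identical to each other.
his-6/his-5: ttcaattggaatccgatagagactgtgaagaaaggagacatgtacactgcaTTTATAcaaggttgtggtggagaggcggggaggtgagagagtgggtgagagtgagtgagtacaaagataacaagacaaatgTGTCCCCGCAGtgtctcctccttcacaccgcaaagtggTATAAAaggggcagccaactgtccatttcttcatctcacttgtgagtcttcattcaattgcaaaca
his-17/his-18: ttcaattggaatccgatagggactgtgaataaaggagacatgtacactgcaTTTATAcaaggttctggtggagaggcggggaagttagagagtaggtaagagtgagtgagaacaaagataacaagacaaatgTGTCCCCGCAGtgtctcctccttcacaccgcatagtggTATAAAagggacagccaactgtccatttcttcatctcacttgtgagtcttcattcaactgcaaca
The last pair are the H4 and H3 spacer at chrIV:7487993-7488248, which holds the strongest peak below the threshold, and the H2A and H2B spacer at chrV:9545289-9545535, next to his-37, which lacks the element.
his-60/his-59: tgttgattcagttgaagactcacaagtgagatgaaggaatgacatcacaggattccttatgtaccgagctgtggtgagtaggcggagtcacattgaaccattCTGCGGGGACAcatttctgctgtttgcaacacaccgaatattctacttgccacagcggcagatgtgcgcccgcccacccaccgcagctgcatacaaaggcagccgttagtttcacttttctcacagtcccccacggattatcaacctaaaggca
his-35/his-41: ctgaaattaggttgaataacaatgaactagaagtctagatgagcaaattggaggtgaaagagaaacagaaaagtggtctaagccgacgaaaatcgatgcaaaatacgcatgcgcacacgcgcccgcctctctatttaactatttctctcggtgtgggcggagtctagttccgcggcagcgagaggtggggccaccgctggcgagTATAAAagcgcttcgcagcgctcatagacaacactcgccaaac

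Peaks were read at each gene in a window from 1000 bp upstream to 200 bp downstream of the 5′ end. A site is a peak of the authors' conservative set, 1209 in all, whose summit lies in the window. A ranked peak is any of the 36486 peaks of the list from which that set was taken, whatever its irreproducible discovery rate (IDR), the authors' measure of how poorly a peak's rank repeats between libraries. Signal is the score that the authors' peak caller gave a peak, and each list is scored separately. Means, SDs and differences between replicates set the scores of 2 such lists side by side, without rescaling. The ranked lists of replicates 1 and 2 held 23365 and 26648 peaks with median signals of 17.5 and 19.2. Read totals are not in the lists, which leaves the depth of both libraries unknown.

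Few histone genes had a LIR-1 site. The genes with a site were his-37, which encodes an H4, and the pair his-67 (H4) and his-68 (H2A), which share 1 site. That is 3 of 72, or 4.17% (exact binomial 95% interval 0.868 to 11.7), beside 4.42% of all protein-coding genes. The clustered genes had 3 of 67 (4.48%, interval 0.933 to 12.5). The isolated genes had 0 of 5 (interval 0 to 52.2), and by the rule that a count of 0 allows up to 3 counts, the limit is 60.0%. The share among histone genes was therefore close to the background, and the intervals, which cover counting error only and treat neighbours as independent, exclude neither a lower nor a higher one.

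Ranked peaks of any IDR lay in the windows of 24 histone genes, 33.3% (interval 22.7 to 45.4), beside 38.6% of all protein-coding genes. Clustered genes had 23 of 67 (34.3%, interval 23.2 to 46.9) and isolated genes 1 of 5 (20.0%, interval 0.505 to 71.6), so the split could not be told apart at these numbers. Of the 24 genes, 10 had ranked summits only outside a narrower window of 500 bp upstream to 100 bp downstream, which reaches less far past a divergent partner. In that window 14 of 72 had a ranked peak (19.4%, interval 11.1 to 30.5), beside 25.7% of all protein-coding genes. Because divergent neighbours share peaks, the 24 genes held 26 distinct ranked peaks, of which 9 lay in more than 1 histone window. Sites made up 2 of the 26 (7.69%), beside 7.41% of the 8955 ranked peaks in all protein-coding windows. The median signal of the 26 was 34.2, beside 29.8 for those 8955. A histone gene had the nearest protein-coding 5′ end at all 26.

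**Figure D1:**
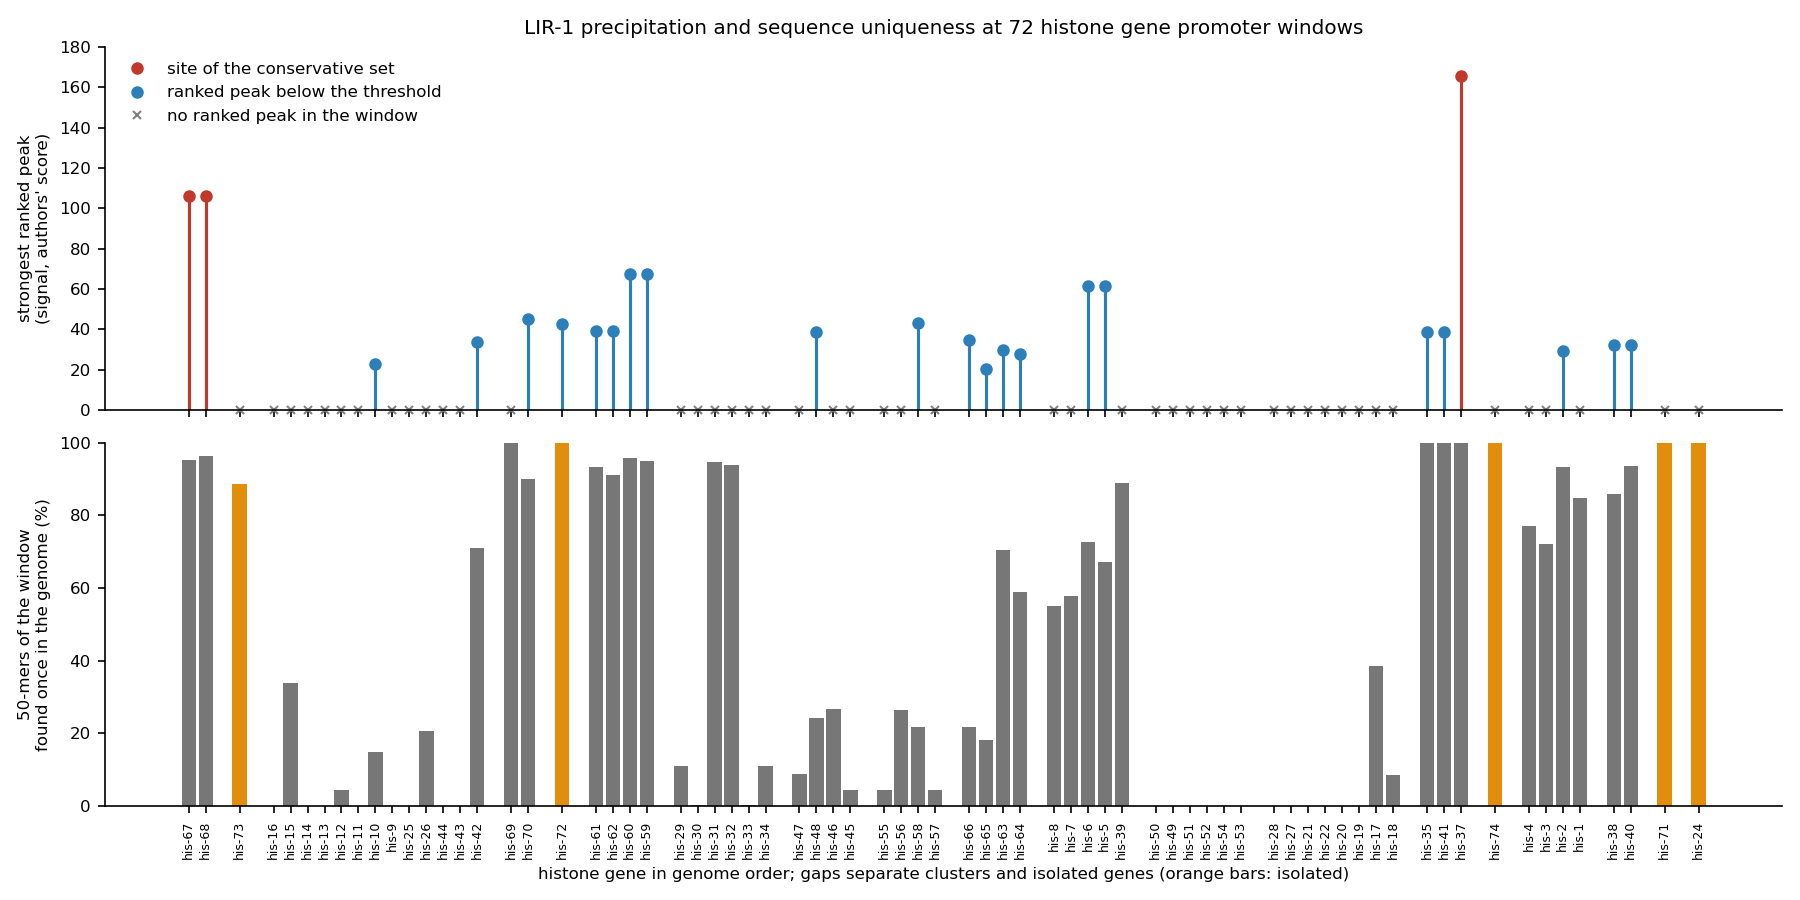
Top: signal of the strongest ranked peak in the window of each of the 72 histone genes, in genome order (red, site; blue, below the threshold; cross, no ranked peak). Bottom: share of the 50-base words of the same window that occur once in the genome, with isolated genes in orange. The tall peaks at his-37 (165.7) and his-67/his-68 (106.2) stand over windows of 95.4% to 100% unique words, and the runs from his-50 to his-53 and from his-28 to his-18 have no ranked peak.

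Both histone sites lay in the window of an H4 gene, although the second is shared with an H2A gene whose 5′ end is nearer. The his-37 gene (WBGene00001911) lies on the plus strand at chrV:9547105-9547607, and unlike the other H4 genes it has an intron, an annotated UTR and no divergent partner. Its site, chrV:9546871-9547150, had a signal of 74.5 in replicate 1 and 90.7 in replicate 2, a mean of 82.6 ± 11.4 (SD, n = 2). In the list of both libraries the signal was 165.7, rank 116 of 36486, with an IDR of 1.00e-05. The summit lay 94 bp upstream of the 5′ end, and the peak was in the thresholded list of each replicate alone.

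The his-67/his-68 site, chrI:9988872-9989151, had a signal of 61.0 in replicate 1 and 52.2 in replicate 2, a mean of 56.6 ± 6.19 (SD, n = 2). Its signal from both libraries was 106.2, rank 358, with an IDR of 5.96e-05. The summit lay inside the 368 bp spacer, 120 bp upstream of his-68 and 249 bp upstream of his-67. It was also 790 bp upstream of alg-5, an Argonaute gene, whose window it shares. This pair is the only H4 and H2A pair among the 31.

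The strongest histone peak that missed the threshold lay between his-60 (H4) and his-59 (H3), 47 bp upstream of his-60. Its signal was 53.8 in replicate 1 and 22.8 in replicate 2, a mean of 38.3 ± 21.9 (SD, n = 2). The scores of the 2 lists thus differed by more than at any other histone peak present in both. The replicate 2 value came from an overlapping peak whose summit lay outside the spacer. In the list of both libraries the his-60/his-59 peak had 67.4 and an IDR of 0.128. It passed the threshold in replicate 1's own list, which marked 5 histone genes (background 3.50%), but not in replicate 2's, which marked the same 3 as the conservative set (background 2.39%). The median signal of the conservative set was 86.4 and its 10th percentile 63.0.

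The spacer of his-6 (H3) and his-5 (H4) held a peak of 21.2 in replicate 1 and 33.0 in replicate 2, a mean of 27.1 ± 8.33 (SD, n = 2). From both libraries the signal was 61.2 with an IDR of 0.0870, the lowest among the 24 histone peaks below the threshold. At an IDR of 0.05 or lower, 3 histone genes had a ranked peak, the same as those with a site, beside 5.90% of protein-coding genes. The other 23 peaks had IDR values up to 0.866, the highest in the list, and 13 of the 24 were over 0.5.

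**Figure D2:**
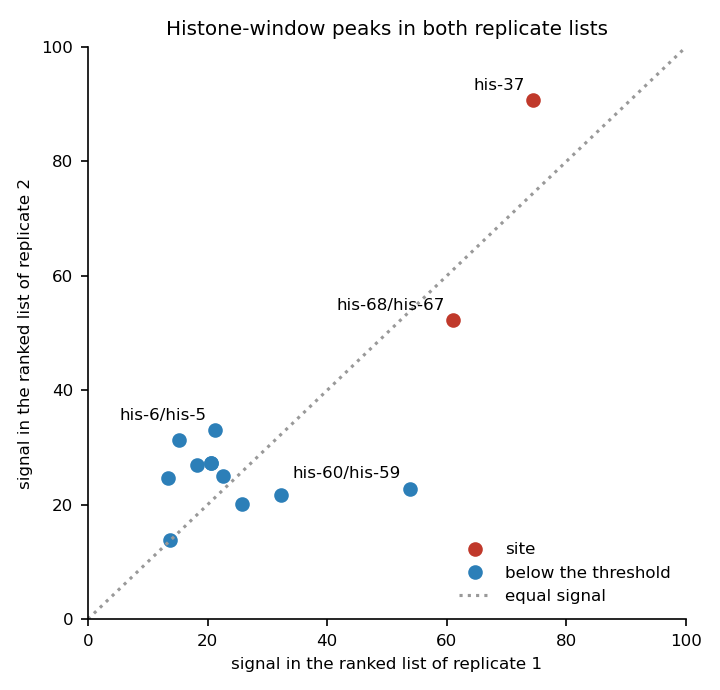
Signal in the ranked list of replicate 1 (x axis) and replicate 2 (y axis) for the 13 histone-window peaks that overlap a peak in both lists, with the line of equal signal. The 2 sites (red) lie above 50 in both libraries, his-60/his-59 has 53.8 in replicate 1 and 22.8 in replicate 2, and 2 neighbouring peaks at his-62 share 1 point because they overlap the same replicate peaks.

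Counted by role, 7 of the 16 H4 genes had a ranked peak (43.8%, interval 19.8 to 70.1). Sites lay at 2 of the 16 (12.5%, interval 1.55 to 38.3), beside 4.42% of all protein-coding genes. Of the H3 genes, 6 of 15 had a ranked peak (40.0%, interval 16.3 to 67.7), the strongest being the peak shared by his-59 and his-60. Among H2B genes the count was 5 of 16 (31.2%, interval 11.0 to 58.7), and among H2A genes 4 of 17 (23.5%, interval 6.81 to 49.9). All these intervals for ranked peaks include 38.6%, the background, and the interval for H4 sites includes 4.42%. H3 and H4 genes share spacers, as do H2A and H2B genes, so the classes are not independent of each other. At some genes of each class the strongest ranked summit lay beyond the divergent partner's 5′ end. These were H2B genes his-48, his-58 and his-66, H3 genes his-2 and his-63, H4 genes his-10 and his-64, and H2A gene his-65.

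Among H2A and H2B genes, the peak between his-35 (H2A) and his-41 (H2B) lay 34 bp upstream of his-41, with 25.8 in replicate 1 and 20.2 in replicate 2 (mean 23.0 ± 3.98, SD, n = 2). Its signal from both libraries was 38.5 with an IDR of 0.275, and the overlapping replicate 2 peak had its summit outside the spacer. The peak between his-61 (H2A) and his-62 (H2B) had 18.2 and 27.0 in replicates 1 and 2 (mean 22.6 ± 6.22, SD, n = 2) and 38.9 from both. At his-58, an H2B gene, the summit lay 928 bp upstream, beyond the 5′ end of its divergent partner his-57 and inside that H2A gene. This peak had 32.3 and 21.7 in replicates 1 and 2 (mean 27.0 ± 7.51, SD, n = 2) and 43.1 from both. These values were below his-37 and his-67/his-68 in both libraries.

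The H3.3-type genes, which encode replacement histones, had no site. The isolated his-72 (chrIII:12367475-12369050) had a ranked peak 47 bp upstream, with 15.3 in replicate 1, 31.3 in replicate 2 (mean 23.3 ± 11.3, SD, n = 2) and 42.6 with an IDR of 0.671 from both. A second his-72 peak, 620 bp upstream with 39.4, also lay in the window of rpt-6, a proteasome subunit gene. At his-70 a peak of 45.2 (IDR 0.172) lay 101 bp downstream of the 5′ end, and its neighbour his-69, with a window of only unique words, had none in any ranked list. The isolated his-74 (chrV:12659704-12660330) had peaks of 10.6 and 14.8 in the lists of replicates 1 and 2, and none from both. The isolated his-71 (chrX:7981382-7982070) had a peak of 20.9 in replicate 2 alone.

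The only H1 gene with a his- name, his-24 (chrX:14490094-14491119), had no peak in the main ranked list or in either replicate's. The other ranked list of the series held 1 in its window, with a signal of 31.2. The isolated fragment his-73 (chrII:13183705-13183845) had none in any list. Over all 72 genes, 18 had a peak in the ranked list of each replicate, and 42 had none in the series list or in either replicate's.

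Copies of histone genes are near-identical, so a read from such a window can match several places, and the sources used here do not give how the authors placed such reads. Each window was therefore scored by the share of its 50-base words found once in the genome on either strand. The median was 25.3% for histone genes and 100% for all protein-coding genes. Under 50% unique were 40 of the 72 histone windows (55.6%), beside 2.49% of all. All 40 belonged to clustered genes, whose median was 21.8%, while the isolated genes ranged from 88.7% to 100%. Histone genes with a ranked peak had a median of 90.6%, and those without one 4.34%.

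Among windows under 50% unique, 5 of 40 histone genes had a ranked peak (12.5%, interval 4.19 to 26.8), beside 30 of 498 such windows of all protein-coding genes (6.02%). At those 5 genes the summits lay 772 to 963 bp upstream, beyond the divergent partner's 5′ end, so none lay in the spacer next to the gene. The peaks there were 64.5% to 100% unique. From 50% to 95%, the count was 11 of 20 (55.0%, interval 31.5 to 76.9), beside 32.1%. At 95% or more it was 8 of 12 (66.7%, interval 34.9 to 90.1), beside 40.4%. Sites lay at 0 of 40, 0 of 20 and 3 of 12 histone genes (25.0%, interval 5.49 to 57.2) in these ranges, beside 1.00%, 4.72% and 4.48% of all genes. Only the interval for sites at 95% or more excluded the share of all genes, and it rests on 2 sites. The part that repeated sequence plays in the missing peaks was not tested.

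**Figure D3:**
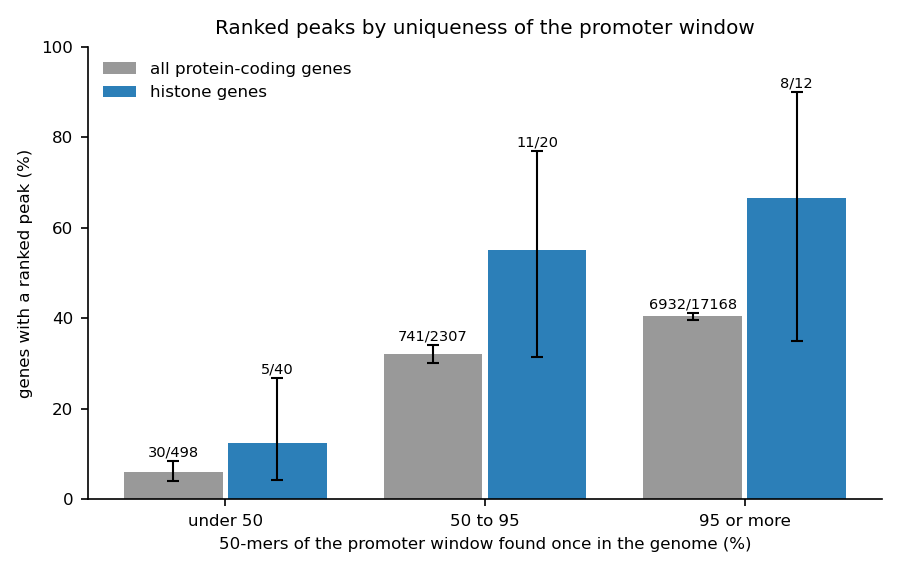
Share of genes with a ranked peak (y axis, percent) in 3 ranges of the share of unique 50-base words in the promoter window (x axis), for all protein-coding genes (grey) and histone genes (blue), with exact binomial 95% intervals and the counts above each bar. Both sets rise from left to right, histone genes from 12.5% to 66.7% and all genes from 6.02% to 40.4%, and the histone intervals are wide.

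The clusters varied in uniqueness and in peaks, and the order was not strict. Uniqueness was scored from the first to the last gene of a cluster, while peaks were read in windows that can reach past it. The cluster from his-50 to his-53 (chrV:8847393-8854053, 6 genes) had no unique word, the one from his-28 to his-18 (chrV:8889488-8898539, 8 genes) had 1.62%, and neither held a ranked peak. The 13-gene cluster on chromosome II, from his-16 to his-42, was 7.58% unique and had ranked peaks at 2 genes, his-10 (22.9) and his-42 (33.7). The his-42 peak lay outside the scored stretch, with its summit 42 bp from the 5′ end of the snRNA gene C47F8.9. The cluster from his-47 to his-45 was 5.18% unique. The ranked peak of 38.8 in the his-48 window lay 963 bp upstream, outside that stretch and in sequence of only unique words. By contrast the cluster of his-61, his-62, his-60 and his-59 on chromosome IV was 93.1% unique, and the windows of all 4 genes held ranked peaks, 7 in all. Several of these overlapped each other and the same replicate peaks, so they are not 7 separate places. Their signals ran from 4.3 to 67.4, and the outermost peak started past the last gene. The 6-gene cluster from his-29 to his-34 was 52.7% unique and held none, although his-31, an H4 gene there, had a window of 94.8%. Its window held a peak of 15.8 in replicate 1's ranked list and one of 20.1 in replicate 2's, and the window of its H3 partner his-32 had 20.1 in replicate 2's list alone. The cluster from his-4 to his-1 was 79.6% unique and had a ranked peak at 1 of 4 genes. That peak, 29.1 at his-2, lay 883 bp upstream and outside the scored stretch.

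The spacers of the divergent pairs gave the narrowest view. Of the 31, 16 were identical in sequence to at least 1 other. A ranked summit lay in 0 of the 17 spacers with no unique word, in 1 of the 6 with some, and in 5 of the 8 with only unique words (62.5%). Among other divergent protein-coding pairs with spacers of the same length range and only unique words, 115 of 284 (40.5%) held a ranked summit and 38 (13.4%) a site, beside 1 of 8 histone spacers with a site. The numbers are too small to separate 5 of 8 from that background.

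The his-6/his-5 and his-17/his-18 spacers printed above show the contrast in 1 pair of sequences. They are 94.9% identical, and both carry the element with a TATAAA match on each side of it. The first was 97.9% unique and held the peak of 61.2, and the second was 1.08% unique and held no ranked peak in the series list or in either replicate's. The his-50/his-49 and his-28/his-27 spacers, identical to each other and 94.5% identical to his-6/his-5, had no unique word and no peak. The next most similar spacers had only unique words: his-2/his-1 (89.9% identical) held no ranked summit, and his-38/his-40 (88.1%) held one of 32.2 at an IDR of 0.866. The other H3 and H4 spacers were 55.8% to 65.0% identical to his-6/his-5.

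The 11-base element was chosen after the letters of the spacers had been read, so its counts describe these promoters and test nothing. It was searched on both strands as TGTCCCCGCAG, the form upstream of his-37, so an exact match there was fixed in advance. In the printed sequences the element shares no base with a TATAAA match. It lay in 24 of 72 histone windows (33.3%), and in 40 of all 19973 protein-coding windows (0.200%), 16 of them at genes other than histones. Allowing 1 mismatch, it lay in 60 histone windows (83.3%) beside 0.806% of all. In the spacers it was exact in 11 of 31 and within 1 mismatch in 29 (93.5%), beside 0 of 303 other divergent spacers of the same length range under either rule. Spacers that are copies of each other are not independent cases. All 4 core classes carried it, from 5 of 16 H2B windows to 7 of 16 H4 windows, as did the H1 gene his-24, and none of the 5 H3.3-type genes did.

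At his-37 the centre of the element lay 2 bp from the summit of the site. The his-67/his-68 site held 2 copies, with centres 13 and 24 bp from its summit. At his-61/his-62, his-60/his-59 and his-6/his-5 the copy lay 48, 61 and 74 bp from the summit, inside peaks that missed the threshold. The distance was thus shortest at the site of highest signal among these 5 peaks, but the order was not strict. The weakest of them, his-61/his-62 (38.9), lay nearer to its copy than his-60/his-59 (67.4) and his-6/his-5 (61.2). Whether signal goes with this distance was not tested.

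Most copies of the element lay outside LIR-1 peaks. Of its 70 copies in the nuclear genome, 21 (30.0%) lay in a ranked peak and 5 (7.14%) in a site. Ranked peaks covered 9.83% of the genome, and no such share is given here for sites. Among the 7 copies in histone windows within only unique words, 5 lay in a ranked peak and 3 in a site. The 2 that did not were upstream of his-24 and between his-4 and his-3. Of all 56 copies elsewhere, 15 (26.8%) lay in a ranked peak and 2 in a site. Both of these lay in 1 site at K07C5.13 with a signal of 148.7, where the copies had centres 3 and 65 bp from the summit and the words over them were 75.0% and 82.5% unique. Among the 39 copies elsewhere within only unique words, 10 (25.6%) lay in a ranked peak and 0 in a site. Among all 1209 sites, 3 held the element.

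**Figure D4:**
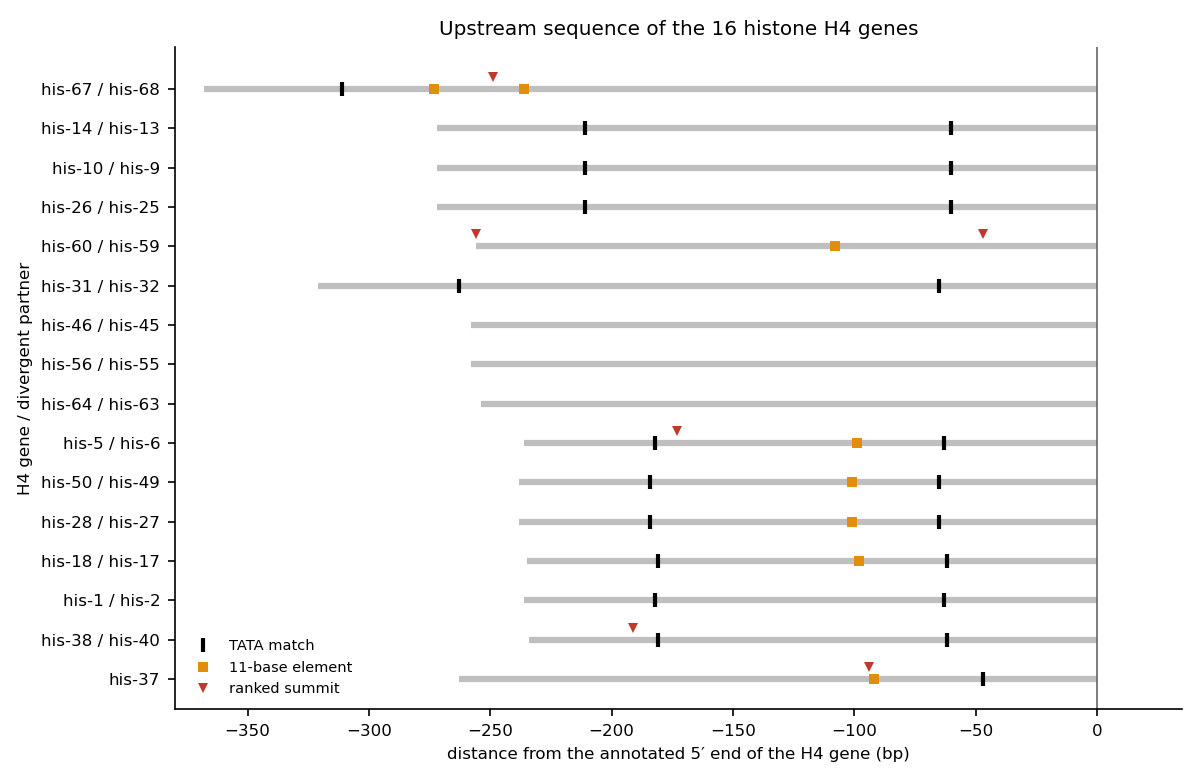
Sequence upstream of the 16 H4 genes, by distance from the annotated 5′ end (x axis, bp): grey bars are the spacer to the divergent partner, or for his-37 the stretch to the end of the neighbouring gene C50F4.6, black ticks TATAAA matches, orange squares the 11-base element and red triangles ranked summits. The element lies 92 to 273 bp upstream in 7 of the 16, and the his-37 summit falls on it.

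Other motifs searched on both strands were set beside all windows. TATAAA lay in 90.3% of histone windows and 80.0% of all, CCAAT in 97.2% and 92.5%, and GAGAGA in 56.9% and 50.9%. TTTCGC lay in 40.3% and 49.9%, CACGTG in 6.94% and 18.4%, TTCCCGCC, an E2F-type sequence, in 1.39% and 3.93%, and the C/EBP palindrome in 0% and 0.185%. The run TTTTTTTT lay in 26.4% of histone windows and 72.5% of all. CCAAT is short enough that nearly every window holds it.

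The genes were also sorted by the 3′ stem-loop of replication-dependent histone mRNAs. A perfect 6-base stem with a 4-base loop lay within 100 bases after the stop codon of 57 genes. It read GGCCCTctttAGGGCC at 53, for example his-8, and GGCCCTcttaAGGGCC at 4, for example his-52, with the stem in capitals. Within 2 mismatches it was found at 64 genes, which include the H3.3-type gene his-69 and both fragments. The 8 without it, each at least 7 mismatches away, were his-24, his-35, his-37, his-41, his-70, his-71, his-72 and his-74, and 7 of these have introns. Ranked peaks lay at 5 of those 8 genes (62.5%, interval 24.5 to 91.5) and at 19 of the 64 with a stem-loop (29.7%, interval 18.9 to 42.4), and sites at 1 of 8 and 2 of 64. Sorted by the perfect stem-loop, ranked peaks lay at 18 of 57 genes with it (31.6%, interval 19.9 to 45.2) and 6 of 15 without (40.0%, interval 16.3 to 67.7). All 4 intervals include 38.6%, the share of all protein-coding genes, and the gap between the groups depends on the rule used. The windows of those 8 genes were 90.0% to 100% unique, and the part of uniqueness in these shares was not tested.

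Genes that act on histones or encode variants outside the his- names were taken from 3 lists of 27 genes in all. Sites lay at 6 of them and ranked peaks at 21, beside 4.42% and 38.6% of all protein-coding genes. Whether these peaks lie nearer to another gene, or in its window too, was not examined. Of the 11 variant and linker histone genes, 3 had a site. For hcp-3, the centromeric H3 variant, the signal was 113.0 in replicate 1 and 77.1 in replicate 2 (SD 25.4, n = 2) and 190.1 from both, 643 bp upstream. For htz-1, the H2A.Z variant, it was 90.8 and 78.0 in replicates 1 and 2 (mean 84.4 ± 9.07, SD, n = 2) and 169.2 from both, 300 bp upstream. For hil-4, a linker histone, it was 32.7 and 41.5 in replicates 1 and 2 (mean 37.1 ± 6.23, SD, n = 2) and 76.7 from both. Both hcp-3 and htz-1 had a higher signal than his-37 in the list of both libraries. They were also above his-37 in replicate 1 (74.5), but below it in replicate 2 (90.7).

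Of the 14 assembly and chaperone genes, 3 had a site. The strongest was lin-53, a histone-binding WD-repeat protein, with 104.9 in replicate 1 and 87.9 in replicate 2 (mean 96.4 ± 12.1, SD, n = 2) and 204.3 from both. At unc-85, an ASF1-type H3 and H4 chaperone, it was 86.1 and 61.2 in replicates 1 and 2 (mean 73.6 ± 17.6, SD, n = 2) and 145.4 from both. At hmg-3, a FACT subunit, it was 45.6 and 29.1 in replicates 1 and 2 (mean 37.4 ± 11.7, SD, n = 2) and 71.2 from both. Just outside the threshold were chaf-1 (71.3, IDR 0.0129) and chaf-2 (56.1, IDR 0.0189), which encode subunits of the chromatin assembly factor CAF-1. Of the mRNA processing genes, cdl-1 had a ranked peak of 22.4 at an IDR of 0.866, with no value in either replicate's list. The other, csr-1, an Argonaute gene, had no ranked peak.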

How the data were processed

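ChIP-seq peak lists on ce11 were analysed for 2 libraries of 1 group. Per the manifests the authors deposited, filtered alignments and a control alignment lie behind each list. The sources used here do not give the aligner, the peak caller or the treatment of reads with several matches. The deposited lists hold the authors' signal per peak, the summit offset and, in ranked lists, the −log10 of the global IDR, which the authors computed.

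Genes came from Ensembl release 115 and symbols and genome sequence from RefSeq (WBcel235, the same assembly as ce11). Summits were assigned to windows from 1000 bp upstream to 200 bp downstream of the 5′ end, and a gene could share a summit with its neighbour. Replicate values are those of the overlapping peak in each replicate's ranked list, at histone peaks the strongest, and its summit can lie elsewhere. Shares have exact binomial (Clopper-Pearson) 95% intervals, and no p-value was computed, since there is 1 group and genes are not replicates. Uniqueness used words of 50 bases, with 36 and 100 as alternatives. The scripts were tested on simulated data and used Python 3.11.15, numpy 2.4.6, pandas 2.3.3, scipy 1.17.1, biopython 1.88 and matplotlib 3.10.9.

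The members, lists and rules were chosen with earlier results of these data known; the stem-loop and element searches were added after the sequences were read. Named are all histone genes with a peak in a thresholded list, the 10 with the strongest ranked peak, all isolated genes and list genes with a site; others named were chosen after their values were seen. Other site sets, windows, assignments, cluster distances, ranked lists and single replicates were tried as alternatives.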

Additional observations from a re-analysis of the deposited data

How the results depend on the processing

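The count of histone genes with a site was 3, and all 3 were clustered. With 1 replicate's own list it ranged from 3 to 5, both among all histone genes and among clustered ones, the higher count coming without replicate 2. The isolated count was 0 under every alternative run. Under the other alternatives the count of genes with a site ran from 2, with nearest-gene assignment, to 4, with a window reaching 2000 bp upstream.

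Histone genes with a ranked peak numbered 24, of which 23 were clustered. The count was 3 for all and 3 for clustered genes at an IDR of 0.05 or lower, and 14 and 13 with a window of 500 bp upstream to 100 bp downstream, where the share of all protein-coding genes was 25.7%. With single replicates it ranged from 23 to 25 for all genes and from 20 to 23 for clustered ones. The isolated count, 1, was 2 in the other ranked list, 0 at an IDR of 0.05 or lower, and 2 to 3 with single replicates. The cause was not tested. The median over genes with a ranked peak of their strongest signal, 38.9, was 20.3 to 24.0 in single replicates, whose lists are scored separately.

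Median window uniqueness was 25.3% with words of 50 bases, 23.3% with 36 and 28.7% with 100. Cluster distances of 2 and 10 kb gave the same genes. No paired analysis was possible because the series has 1 group. Depth is unknown, no untagged library was analysed here, and repeated sequence limits what a missing peak can show at 40 of the 72 histone windows.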
